A study of Mus musculus with 12 samples.

Results

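The ErbB family of receptor tyrosine kinases (Egfr, Erbb2, Erbb3 and Erbb4) was followed in RNA-sequencing data of distal colonic homogenates. With it went a group of genes called brakes here (Lrig1, Lrig2, Lrig3, Errfi1 and Cbl). Lrig2 and Lrig3 were placed in this group by family, and whether they hold the receptors back was not tested. The 9 genes were chosen by name, out of 35241 gene symbols, but with earlier results of these data known. Together they had 51 transcripts, and 8 of the 9 reached the mean of 0.5 that was asked of a gene to be tested. Erbb4 did not.

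RNA was taken from the full-thickness distal colon of 12 mice. All 12 carried floxed Spry2 alleles. In 6 of them, here Spry2IEKO mice, Cre driven by the villin promoter (Vil1::Cre) removed Sprouty2 from the intestinal epithelium, while the homogenate held all layers of the wall. The other 6, here Spry2FF mice, were littermates without Cre. Each of the litters A and B gave 3 mice of either genotype. Males made up 3 of the 6 Spry2FF mice but only 1 of the 6 Spry2IEKO mice. The labels give an age of 6 weeks in one place and of 8 weeks in another.

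ErbB receptors sit in the cell membrane and pair with each other when a ligand of the EGF or neuregulin family binds. Egfr binds EGF-type ligands and has a strong kinase, Erbb2 has no known ligand and is the preferred partner of the others, and Erbb3 binds neuregulins but has a weak kinase and passes its signal through its partners, above all to PI3K and Akt. Erbb4 binds neuregulins and has an active kinase. Lrig1 is a membrane protein that sends ErbB receptors to degradation and marks stem cells in the colonic crypt. Errfi1 (also called Mig6) binds the kinase domain of an active receptor and blocks it, and Cbl is a ubiquitin ligase that tags active receptors for the lysosome. Sprouty2 is itself a feedback regulator of receptor tyrosine kinases and binds Cbl.

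The deposited values are transcript abundances normalized for transcript length and sample total (TPM), scaled once more between mice, and their totals ran from 918816 to 1069158 a mouse. Since they are no longer counts of reads, library depth cannot be read from them, and no counting interval is given. The transcripts of a gene were summed, and this sum is called normalized TPM. Since TPM is set per transcript length, levels can be compared between genes. Spry2 was 22.8, 28.4 and 32.3 in Spry2FF mice of litter A and 28.4, 25.3 and 29.1 in those of litter B. The Spry2IEKO mice had 18.5, 21.6 and 19.5 in litter A and 22.5, 19.0 and 19.2 in litter B. The genotypes did not overlap, and a two-sided exact permutation of the mice gave p = 0.00216, which 6 against 6 cannot go below. The 6 markers of colonic surface and goblet cells summed to between 4961 and 9225 in a mouse and the 5 markers of small intestine to between 12.3 and 22.2. Of the mice, 2 stood apart in the sum of 6 fat markers, namely Spry2IEKO replicate 4 at 422 and Spry2IEKO replicate 5 at 802, both of litter A, against 20.2 to 76.5 in the other mice.

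Erbb3 was the most abundant of the 9 genes in each of the 12 mice. It averaged 84.7 ± 16.0 (SD, n = 12) normalized TPM, ahead of Erbb2 at 50.8 ± 9.998 (SD, n = 12). The ranges of these 2 receptors, 68.8 to 123.3 and 35.8 to 68.6, did not quite meet. Errfi1 followed at 46.6 ± 9.14 (SD, n = 12) and Lrig1 at 42.1 ± 5.16 (SD, n = 12). Erbb2, Errfi1 and Lrig1 did not hold a fixed order, since Erbb2 was above Errfi1 in 8 of 12 mice and Errfi1 was above Lrig1 in 8 of 12. Lrig3 came next at 31.4 ± 4.18 (SD, n = 12) and was below Lrig1 in 11 of 12 mice. Cbl, Egfr and Lrig2 held the same places in all 12 mice, at 22.8 ± 2.85, 9.25 ± 2.07 and 7.02 ± 0.771 (SD, n = 12). Egfr was thus above Lrig2 in each mouse, although their ranges over the mice overlapped. Erbb4 was listed at 0 in 9 of 12 mice and did not pass 0.0673 in the others.

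**Figure D1:**
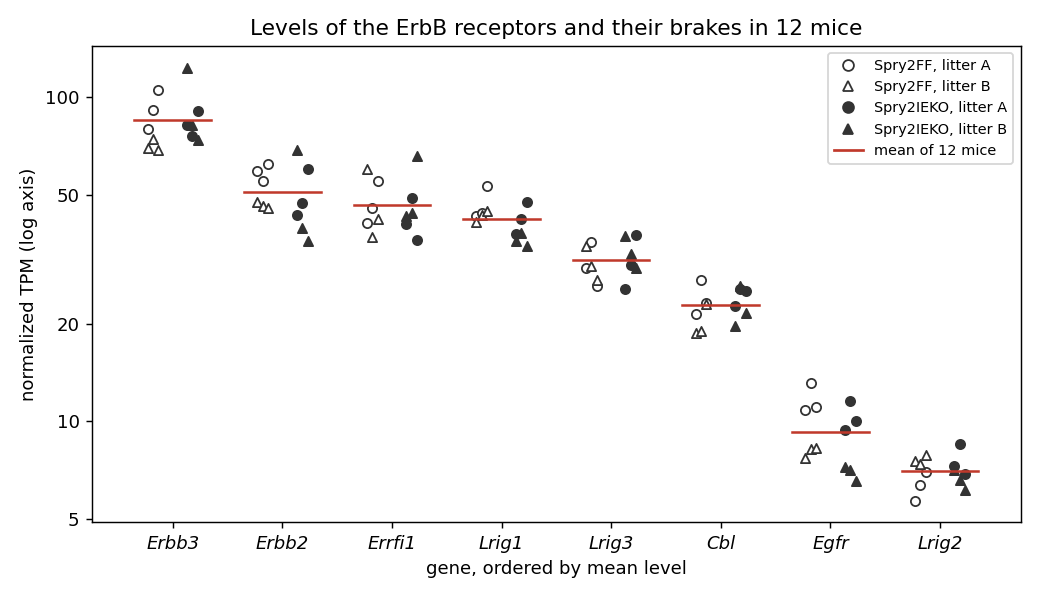
Normalized TPM (log axis) of 8 genes in each of 12 mice, ordered by mean level. Open symbols are Spry2FF and filled symbols Spry2IEKO mice, circles litter A and triangles litter B, and a red line is the mean of all 12. Erbb4, listed at 0 in 9 mice, is left out. Open and filled symbols overlap for every gene, while the circles of Egfr all lie above its triangles.

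Read as shares, the ErbB receptor message of the distal colon was mostly Erbb3. Of the receptor sum, which ran from 116 to 199 normalized TPM, Erbb3 took 58.5% ± 3.32 (SD, n = 12), Erbb2 35.02% ± 2.77 and Egfr 6.46% ± 1.29. Egfr reached at most 8.58% of the receptor message in a mouse. The ratio of Erbb3 to Erbb2 was 1.83 ± 0.230 (SD, n = 6) in Spry2IEKO and 1.55 ± 0.129 (SD, n = 6) in Spry2FF mice, and the 2 groups overlapped, with 1.51 to 2.07 against 1.35 to 1.69. This ratio was not tested. Among the 3 Lrig genes, Lrig1 made up 54.4% ± 4.31 (SD, n = 6) of the Lrig sum in Spry2FF mice, against 50.03% ± 3.07 (SD, n = 6) where Sprouty2 had been deleted. These shares overlapped, with 49.4% to 61.7% against 44.8% to 53.4%, and were not tested.

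**Figure D2:**
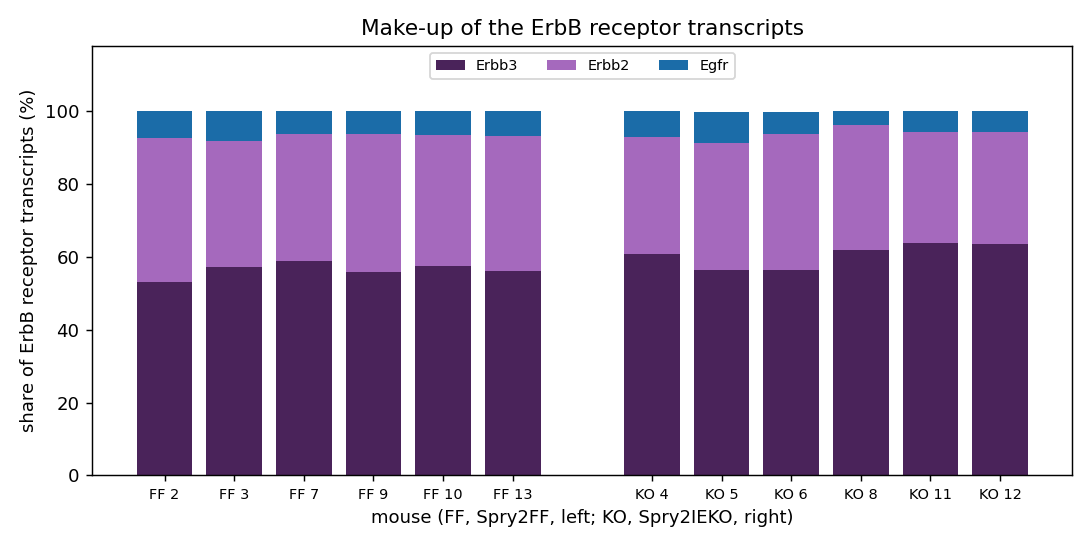
Share of Erbb3, Erbb2 and Egfr in the summed ErbB receptor message of each mouse, in percent, with Spry2FF mice on the left and Spry2IEKO mice on the right. Erbb4 is too low to be seen. Erbb3 is the largest part of every bar, at 53.2% to 63.7%.

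The first comparison asked whether loss of epithelial Sprouty2 went with a change in these receptors or their brakes. No member passed the test. None of the 8 tested genes passed an adjusted p of 0.05 in limma (linear models of log2(normalized TPM + 0.5), with p-values adjusted by Benjamini and Hochberg's method over 15880 genes). Only 5 of the 15880 genes did so, which is 0.0315%. At an unadjusted p under 0.05, 1 of the 8 members passed (Lrig1), beside 6.18% of all genes. The median difference of the 8 members was 0.0015 on the log2 scale, and that of all genes tested was 0.0076.

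Erbb3, at chromosome 10, 128567523 to 128589652, was 79.6, 91.5 and 104.9 in Spry2FF mice of litter A and 69.9, 74.0 and 68.8 in those of litter B. In Spry2IEKO mice it was 82.0, 76.1 and 90.7 in litter A and 123.3, 81.9 and 73.9 in litter B. A single Spry2IEKO mouse, replicate 8 and the only male of its group, lay far above the rest. The difference was 0.11 on the log2 scale (95% interval -0.18 to 0.39, adjusted p = 0.921 by limma) and came to 0.0037 without that mouse.

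Erbb2 (chromosome 11, 98412470 to 98437716) was 59.2, 55.2 and 62.0 in Spry2FF mice of litter A and 47.3, 46.2 and 45.4 in those of litter B. The Spry2IEKO mice had 43.3, 47.0 and 60.03 in litter A and 68.6, 39.5 and 35.8 in litter B. The genotypes overlapped widely, and replicate 8 was again the highest Spry2IEKO mouse. Erbb2 differed by -0.13 on the log2 scale (95% interval -0.45 to 0.20, adjusted p = 0.919 by limma). This ran from -0.23 to -0.043 when 1 mouse at a time was left out, and came to -0.034 with sex as a covariate.

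Lrig1, at chromosome 6, 94604529 to 94700158, came nearest to a difference between genotypes. It was 43.0, 43.7 and 53.2 in Spry2FF mice of litter A and 41.3, 43.3 and 44.5 in those of litter B, while the Spry2IEKO mice had 37.7, 42.0 and 47.5 in litter A and 36.0, 38.0 and 34.6 in litter B. In litter B the 3 Spry2IEKO mice were below the 3 Spry2FF mice, while in litter A the genotypes overlapped. By limma in litter B alone, the unadjusted p was 0.0275 and the adjusted p 0.987. The mean was 39.3 ± 4.72 (SD, n = 6) against 44.8 ± 4.24 (SD, n = 6), a difference of -0.19 on the log2 scale (standard error 0.0859, unadjusted p = 0.0444, adjusted p = 0.797 by limma). A two-sided exact permutation test of Lrig1 alone gave p = 0.0498. This p stayed under 0.05 in only 2 of the 12 fits that left out 1 mouse each, where it ran from 0.00649 to 0.106. With litter as a covariate the limma difference was -0.19 (unadjusted p = 0.0228, adjusted p = 0.541). With sex it was -0.24 (unadjusted p = 0.0199, adjusted p = 0.999). With litter and sex it was -0.24 (unadjusted p = 0.00703, adjusted p = 0.628). The unadjusted p by limma was 0.0532 after rescaling each mouse to the same total, 0.0823 in females alone and 0.0695 without the fat-rich mice. Markers of epithelium moved the same way, since 9 of 11 were lower in Spry2IEKO mice, 6 of them at an unadjusted p under 0.05 and 0 at an adjusted one. Their sum was 8348 to 10766 in Spry2IEKO and 9791 to 12241 in Spry2FF mice. With the epithelial marker score as a covariate, Lrig1 differed by -0.22 (unadjusted p = 0.0983, adjusted p = 0.92 by limma). In a bulk sample, fewer cells of a type and less RNA per cell cannot be told apart.

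The other brakes lay closer to 0. Errfi1 (chromosome 4, 150853919 to 150868892) ranged from 37.1 to 59.9 in Spry2FF and from 36.2 to 65.6 in Spry2IEKO mice, a difference of -0.02 (95% interval -0.33 to 0.30, adjusted p = 0.991 by limma). Cbl (chromosome 9, 44142976 to 44234049) ranged from 18.7 to 27.2 and from 19.7 to 26.1, a difference of 0.09 (95% interval -0.13 to 0.31, adjusted p = 0.915 by limma). Lrig3 (chromosome 10, 125966168 to 126015359) differed by 0.07 (95% interval -0.17 to 0.30, adjusted p = 0.939 by limma). With the epithelial marker score as a covariate, Lrig3 differed by 0.31 (95% interval 0.05 to 0.58, unadjusted p = 0.0242, adjusted p = 0.92 by limma).

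Lrig2, the least abundant brake (chromosome 3, 104396418 to 104511918), had 5.69, 6.37 and 6.97 in Spry2FF mice of litter A and 7.56, 7.37 and 7.84 in those of litter B, while the Spry2IEKO mice had 7.27, 8.50 and 6.88 in litter A and 7.07, 6.58 and 6.13 in litter B. The genotype difference was 0.23 on the log2 scale in litter A but -0.19 in litter B, so that the difference over both was 0.02. The test of this opposition, the genotype by litter term in limma, gave -0.42 (standard error 0.18, unadjusted p = 0.0375, adjusted p = 0.998). Of the 8 members 0 passed an adjusted p of 0.05 for this term and 1, Lrig2, an unadjusted one, against 0.0126% and 4.19% of all genes.

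**Figure D3:**
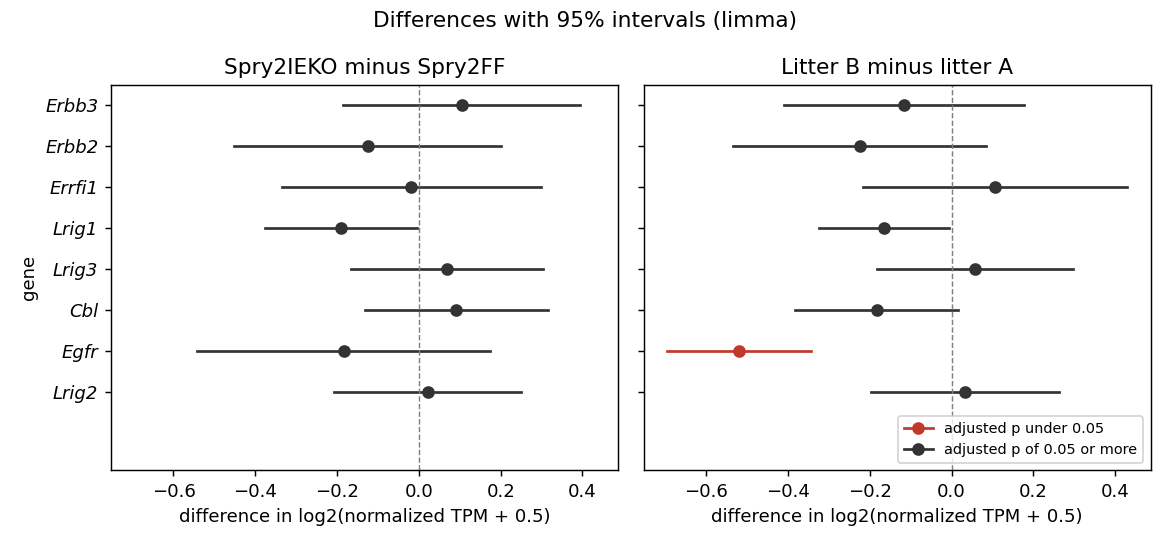
Differences in log2(normalized TPM + 0.5) of 8 genes from limma, Spry2IEKO minus Spry2FF on the left and litter B minus litter A on the right. Points are estimates and lines 95% intervals over 12 mice, in red where the adjusted p is under 0.05. Egfr between litters, at -0.52, is the only red line.

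Egfr was the one member that differed between groups past the threshold, and the groups were the litters. Egfr (chromosome 11, 16752203 to 16918158) was 10.8, 13.1 and 11.02 in Spry2FF mice of litter A and 9.42, 11.6 and 10.01 in Spry2IEKO mice of litter A. It was 7.68, 8.20 and 8.28 in Spry2FF mice of litter B and 7.23, 7.08 and 6.54 in Spry2IEKO mice of litter B. All 6 mice of litter B lay below all 6 of litter A, again at the lowest p an exact permutation of 12 mice gives, 0.00216. Egfr averaged 7.501 ± 0.681 (SD, n = 6) in litter B and 10.99 ± 1.29 (SD, n = 6) in litter A, which is -0.52 on the log2 scale (95% interval -0.70 to -0.34, adjusted p = 0.0112 by limma with genotype as a covariate). The fall was -0.54 among Spry2IEKO and -0.50 among Spry2FF mice.

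This was 1 of 8 members, and litters differed in many other genes too. An adjusted p under 0.05 was reached by 696 of 15880 genes, or 4.38%, and 3.31% were lower in litter B. This split, 525 lower and 171 higher, moved with the scaling of the mice, to 1351 and 105 after each mouse was rescaled to the same total and to 268 and 209 after quantile normalization. Egfr differed by -0.60 and -0.43 under these scalings (adjusted p = 0.0072 and 0.0272 by limma). The groups failed to overlap, with litter B lower, in 2.94% of all genes. Egfr passed the threshold in all 12 fits that left out 1 mouse each (adjusted p from 0.0134 to 0.0341). It did not pass among females alone (-0.50, adjusted p = 0.108 by limma) or without the 2 fat-rich mice (-0.50, adjusted p = 0.0783).

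Fibroblast markers moved with Egfr. All 6 of them (Pdgfra, Col1a1, Col1a2, Col3a1, Dcn and Lum) were lower in litter B, 4 past an adjusted p of 0.05, with a median of -0.74 on the log2 scale. Their sum was 455 to 749 in litter A and 258 to 433 in litter B, with no overlap. With the fibroblast marker score as a covariate, Egfr differed between litters by -0.36 (unadjusted p = 0.0287, adjusted p = 0.754 by limma). In this fit 0 of 15880 genes passed an adjusted p of 0.05, with 996 at an unadjusted p under 0.05. Since the fibroblast sums did not overlap between litters, the fit could hardly tell fibroblast content from litter. The standard error of Egfr rose from 0.0811 to 0.143. Myeloid markers were also lower in litter B (5 of 5, 1 past an adjusted p of 0.05, sums of 54.7 to 312 against 103 to 556), as were B cell and T cell markers (5 of 5 each, 0 past it and 0 at an unadjusted p under 0.05). All 5 tested fat markers were lower too, with a median of -1.82 (3 at an unadjusted p under 0.05, 0 at an adjusted one). The 2 fat-rich mice were both of litter A. Of the 6 colon surface markers 4 were higher in litter B and 2 lower, with a median of 0.44. Of these, 4 were at an unadjusted p under 0.05 and 0 at an adjusted one. Epithelial markers were higher in 7 of 11, but the 1 past an adjusted p of 0.05, Cdh1 (E-cadherin, named after its value was seen), was lower in litter B (-0.22, adjusted p = 0.0282 by limma). The epithelial list had sums of 9587 to 12241 in litter B and 8348 to 10466 in litter A, and the 8 smooth muscle markers had similar sums, of 3292 to 8032 and 3886 to 7058. With the epithelial or the smooth muscle marker score as a covariate, Egfr differed by -0.52 and -0.51 (adjusted p = 0.0333 and 0.0112 by limma). The part of fibroblasts in the difference could thus not be tested, and that of the other cell types was not tested beyond these fits. Litter and any day of handling that went with it cannot be told apart.

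**Figure D4:**
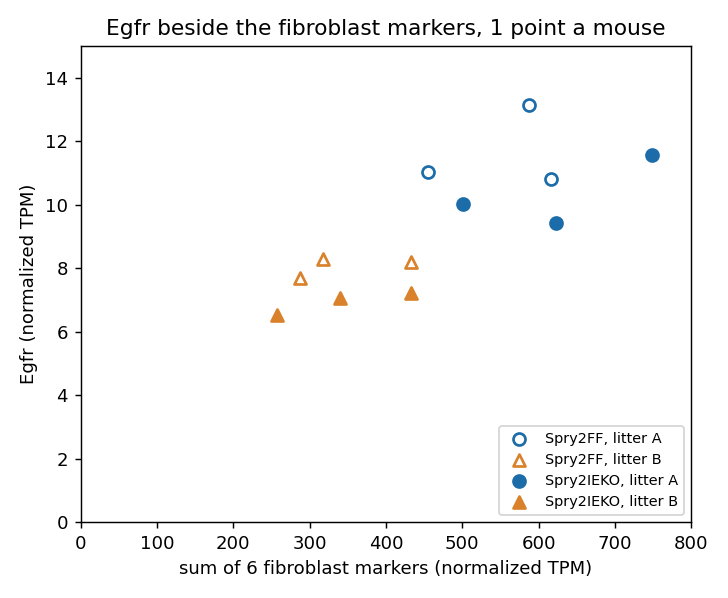
Egfr (normalized TPM) against the summed level of 6 fibroblast markers (normalized TPM) in each of 12 mice, with open symbols for Spry2FF, filled for Spry2IEKO, blue circles for litter A and orange triangles for litter B. Mice of litter A are above those of litter B on both axes, so no correlation over the 12 mice is given.

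Between genotypes, Egfr differed by -0.18 on the log2 scale (95% interval -0.54 to 0.17, adjusted p = 0.894 by limma). Taken litter by litter, the difference came to -0.17 for A and -0.20 for B. With litter as a covariate the standard error fell from 0.166 to 0.0811, and the unadjusted p was 0.0431 and the adjusted p 0.589. With litter and sex as covariates the unadjusted p was 0.0751 (adjusted p = 0.817 by limma). The estimate also moved with the mice and covariates used, to -0.054 in females alone, -0.38 with the epithelial marker score and -0.33 without the 2 fat-rich mice. Exchanging mice within litters gave p = 0.03 for Egfr alone by a two-sided exact permutation test, against p = 0.331 when litters were ignored. In litter B the 3 Spry2IEKO mice lay below the 3 Spry2FF mice, and in litter A the genotypes overlapped. By limma in litter B alone, the unadjusted p was 0.17 and the adjusted p 0.987.

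The other 7 tested members did not pass the threshold between litters. Erbb2 differed by -0.22 (adjusted p = 0.383), Cbl by -0.18 (adjusted p = 0.268), Lrig1 by -0.16 (unadjusted p = 0.0442, adjusted p = 0.214) and Erbb3 by -0.12 (adjusted p = 0.653), all by limma. Without Spry2IEKO replicate 8, Erbb2 did pass, with -0.36 and an adjusted p of 0.0295 by limma. This was the only 1 of 25 alternative fits in which Erbb2 passed, and its adjusted p reached 0.991 in the others.

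Egfr message was made of 3 transcripts above a mean of 0.5, and their sequences show how the products differ. Egfr-201 codes for the full-length receptor of 1210 residues and made up 57.1% of the gene's mean. Egfr-202 shares its first 1925 coding bases, then runs on past the end of exon 16 and stops after 43 bases of its own. It codes for 655 residues, a form with the ligand-binding part but without the kinase domain, and made up 32.1%. The coding bases around the point where both part, from GENCODE M21 on GRCm38 (plus strand), are given here because they tell the truncated message from the full-length one. Lower case marks the last shared bases of exon 16 and capitals the bases of each transcript's own. Both share chr11:16887156-16887185, from which Egfr-201 goes on in exon 17 at chr11:16889913-16889942 and Egfr-202 directly up to 16887215.
Egfr-201: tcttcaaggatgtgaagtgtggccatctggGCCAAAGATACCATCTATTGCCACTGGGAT
Egfr-202: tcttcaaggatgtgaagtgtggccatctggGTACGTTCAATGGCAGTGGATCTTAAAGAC

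Both coding transcripts were lower on average in litter B, but only the noncoding one passed the test. Egfr-201 was 5.72 ± 0.641 (SD, n = 6) in litter A and 4.84 ± 0.195 (SD, n = 6) in litter B, a difference of -0.21 on the log2 scale (adjusted p = 0.312 by limma over 45372 transcripts). Egfr-202 was 3.53 ± 0.512 against 2.42 ± 0.397 (SD, n = 6 each), a difference of -0.47 (adjusted p = 0.126 by limma). No mouse of litter B (2.001 to 2.88) reached the lowest of litter A (2.91), but how many of all transcripts split this way was not counted. Egfr-204, a noncoding transcript of 716 bases within chr11:16905185-16910809, was 0.511 to 3.29 in litter A and 0 to 0.749 in litter B, a difference of -1.45 (adjusted p = 0.0429 by limma). It was 1 of 23 transcripts of these genes past the threshold between litters, beside 1.31% of all transcripts. The share of Egfr-202 in the gene was alike, at 32.3% ± 5.38 in litter A and 32.1% ± 2.84 in litter B (SD, n = 6 each), while that of Egfr-201 was 52.1% ± 2.40 and 65.0% ± 5.99. Shares between transcripts that overlap rest on how kallisto split their reads.

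**Figure D5:**
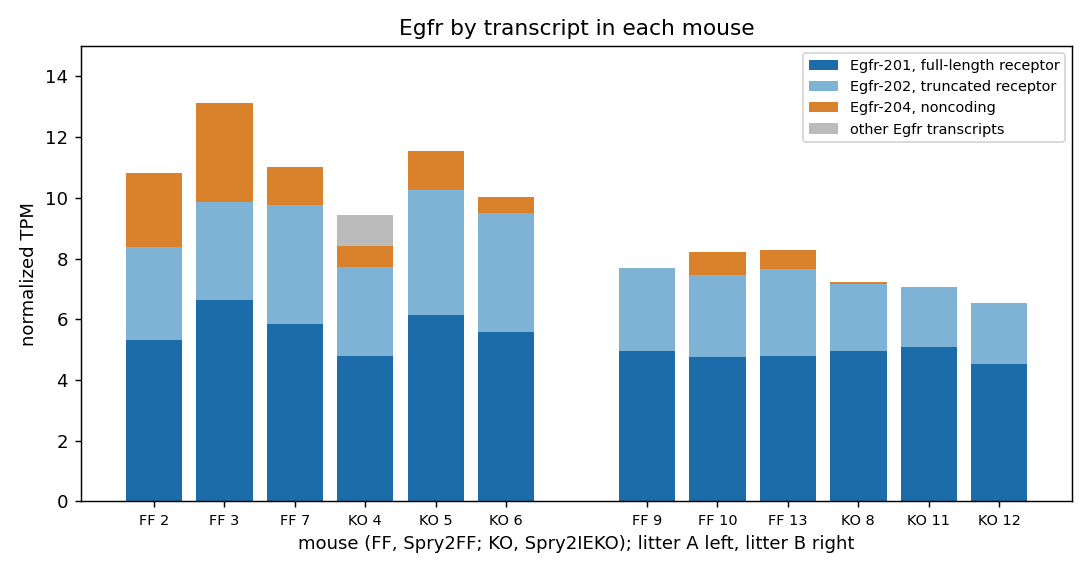
Normalized TPM of the Egfr transcripts in each mouse, stacked, with litter A on the left and litter B on the right (FF, Spry2FF; KO, Spry2IEKO). Egfr-201 and Egfr-202 are present in all 12 mice, and the orange Egfr-204 is at 0 in 3 mice of litter B.

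The other members were carried mostly by 1 coding transcript each. This was Erbb3-201 for all of Erbb3, Lrig1-202 for 95.4% of Lrig1, Errfi1-202 for 91.2% of Errfi1, Erbb2-201 for 86.9% of Erbb2 and Cbl-211 for 77.0% of Cbl. Lrig3-201 made up 68.9% of Lrig3 and Lrig2-201 59.2% of Lrig2. Between genotypes 0 of the 23 member transcripts passed an adjusted p of 0.05 in limma, beside 0.0022% of all transcripts. At an unadjusted p under 0.05 there were 0 of the 23, beside 4.96% of all transcripts. With litter as a covariate, 2775 of 45372 transcripts were at an unadjusted p under 0.05 by limma. Of the member transcripts, the noncoding Egfr-204 was among them (-0.91, unadjusted p = 0.0115, adjusted p = 0.741 by limma). So was the noncoding Erbb2-202 (-0.52, unadjusted p = 0.0494, adjusted p = 0.812 by limma).

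The genes around the receptors, in 4 lists, likewise gave 0 past an adjusted p of 0.05 by limma between genotypes. At an unadjusted p under 0.05 there were 0 of the ligands, 1 of ligand shedding, 1 of the adaptors and 2 of receptor turnover. Over all genes 6.18% were under it, and 0.0315% passed the adjusted threshold. Of the 11 ErbB ligands 8 were tested, 5 lower and 3 higher in Spry2IEKO mice, with a median of -0.30 against 0.0076 over all genes. Areg (amphiregulin), a ligand of Egfr, was 15.2 ± 12.5 (SD, n = 6) in Spry2IEKO and 21.9 ± 7.56 (SD, n = 6) in Spry2FF mice (-0.71 on the log2 scale, unadjusted p = 0.0535 and adjusted p = 0.822 by limma). Tgfa, another Egfr ligand, was 10.1 ± 1.82 against 12.1 ± 1.64 (SD, n = 6 each; adjusted p = 0.826 by limma). All 4 genes of ligand shedding were tested, 2 lower and 2 higher in Spry2IEKO mice, with a median of -0.04. Rhbdf1 (iRhom1), which guides the ligand-cutting protease Adam17, was 10.7 ± 1.65 against 13.1 ± 1.43 (SD, n = 6 each; -0.28, adjusted p = 0.753 by limma). Rhbdf2, its relative, differed by -0.14 (adjusted p = 0.899 by limma).

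The 12 receptor adaptors, which couple active receptors to Ras and PI3K, had 9 lower and 3 higher in Spry2IEKO mice, with a median of -0.06. Eps8, a substrate of Egfr, differed by -0.24 (unadjusted p = 0.0397, adjusted p = 0.785 by limma) and Pik3r1, the regulatory subunit of PI3K, by -0.19 (adjusted p = 0.839 by limma). Of the 16 genes of receptor turnover 11 were lower and 5 higher, with a median of -0.02. Rnf41 (Nrdp1), the ubiquitin ligase of Erbb3, was 9.91 ± 0.964 in Spry2IEKO and 12.4 ± 2.29 in Spry2FF mice (SD, n = 6 each; -0.30, unadjusted p = 0.0311, adjusted p = 0.753 by limma). Hgs, which sorts ubiquitin-tagged receptors in the endosome, differed by -0.24 (adjusted p = 0.805 by limma).

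Between litters, an adjusted p of 0.05 by limma was passed by 1 of the 12 adaptors and 3 of the 16 turnover genes. All of these were lower in litter B. At that threshold there were 0 of the 8 ligands and 0 of the 4 shedding genes, beside 4.38% of all genes (3.31% lower). At an unadjusted p under 0.05 there were 2 of the 8 ligands, 2 of the 4 shedding genes, 7 of the 12 adaptors and 6 of the 16 turnover genes, beside 21.9% of all genes. Ptpn11 (Shp2), a phosphatase that carries receptor signals to Ras, was 26.4 ± 2.71 in litter B and 33.8 ± 3.12 in litter A (SD, n = 6 each; -0.36, adjusted p = 0.0304 by limma). Ptpn1 (PTP1B), which removes phosphate from Egfr, fell from 19.5 ± 1.58 to 13.7 ± 2.50 (SD, n = 6 each; -0.51, adjusted p = 0.0316). Hgs differed by -0.31 (adjusted p = 0.0343) and the ubiquitin ligase Nedd4 by -0.24 (adjusted p = 0.0466), also by limma. The median was -0.18 among adaptors and -0.10 among turnover genes, beside -0.05 over all genes.

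For the 4 most abundant members, the genes with the most similar log2 levels over the 12 mice were sought among 15879 others. They were picked as the highest of so many and carry no p, and the mice share litters and sexes. Erbb3 was nearest to Tsc1, a brake of mTOR (Pearson's r = 0.946, Spearman's rho = 0.888), and to Igsf9 (r = 0.903, rho = 0.678). Without the 2 mice farthest from the median, r was 0.85 for Tsc1 and 0.635 for Igsf9. Erbb2 was nearest to Itgb4, the integrin subunit of hemidesmosomes (r = 0.941, rho = 0.944 and r = 0.903 without those 2 mice), and to Atg9a, a membrane protein of autophagy (r = 0.937, rho = 0.86 and r = 0.893). Errfi1 was nearest to Stx3, a syntaxin of the apical membrane (r = 0.892, rho = 0.72 and r = 0.694), and 2210016L21Rik (r = 0.876, rho = 0.734 and r = 0.658). Lrig1 was nearest to Lzts3 (r = 0.914, rho = 0.818 and r = 0.846) and Zfp526 (r = 0.913, rho = 0.846 and r = 0.84).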

How the data were processed

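Full-thickness distal colon RNA of 12 mice was sequenced. Per the labels, libraries were stranded mRNA libraries read from both ends, while the study's methods name single-ended reads. The authors pseudoaligned reads with kallisto, and CASAVA and sleuth (build mm10) also stand in the submitters' processing notes. The signal deposited for each transcript is a TPM that was scaled again between mice. How it was scaled is not given in the sources used here. Columns of a p-value, a q-value and a test statistic hold the authors' own comparison and were not used.

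Of 113974 entries, 781 repeats were dropped, 27 symbols that had become dates were restored, and transcripts were summed to genes. Entries without a gene name held at most 0.0608% of a mouse's total. Comparisons used limma 3.58.1 under R 4.3.3 (lmFit, then eBayes with a trend; two-sided; Benjamini-Hochberg over all) on log2(value + 0.5) of genes whose mean reached 0.5, which understates changes of low genes. The design was planned for TPM and kept for the scaled signal. Genotype was fitted without a covariate, litter with genotype, and the interaction with both; single members were also tested by exact permutation over mice in SciPy 1.17.1. The fits were tested on simulated data. Groups, litters and sexes came from the labels.

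The members and lists were chosen with earlier results of these data known. Named genes were the 9 members, Spry2, list genes past an adjusted p of 0.05, the 2 of each list with the smallest genotype p, and the 2 most similar genes to each of the 4 most abundant members. Marker lists of stem cells, enteric glia and striated muscle had 0 genes past an adjusted p of 0.05 for genotype, litter or their interaction. Alternatives were pseudocounts, filters, rescaling, quantile normalization, covariates, litters or females alone and leaving out each mouse. Leaving out the fat-rich mice, the smooth muscle and fibroblast scores and the litter fit of transcripts were added after seeing the data.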

Additional observations from a re-analysis of the deposited data

Results flagged for a closer look

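Of 20 groups of 6 mice checked, 3 held a mouse whose gap to the nearest other mouse was large for the range of its group, where chance alone gives about 1 in 20. Erbb3 stood at 123.3 in Spry2IEKO replicate 8, a male in a group otherwise female, against 73.9 to 90.7 in the other 5 Spry2IEKO mice. Lrig1 was 53.2 in Spry2FF replicate 7, against 41.3 to 44.5 in the other Spry2FF mice. Erbb4 was 0.0095 in Spry2FF replicate 3 and listed at 0 in the other Spry2FF mice, a level too low to interpret.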

How the results depend on the processing

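The values hold no read depth, and 6 mice against 6 set their precision. Small changes of low genes could not be detected. No member passed an adjusted p of 0.05 between genotypes under any alternative run, and Egfr kept its lower level in litter B under all of them, from -0.60 to -0.36 on the log2 scale, with an adjusted p from 0.0072 to 0.754. No paired analysis was possible because the replicate numbers of the 2 genotypes are all different. Litter as a block gave 6 genes between genotypes, where there were 5 without it, and no member past the threshold.

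The count of genes past the threshold between genotypes, 5, came to 1 with no minimum mean, with sex, with litter and sex, in litter B alone, with the epithelial score and without the fat-rich mice. It came to 2 with quantile normalization, in litter A alone and in females alone, and to 1 to 11 when a mouse was left out. Between litters, 696 genes came to 422 with no minimum mean, 1456 after rescaling each mouse to the same total, 216 with the epithelial score, 1 in females alone, 0 with the fibroblast score and 17 without the fat-rich mice, and to 180 to 957 when a mouse was left out. For the interaction, 2 genes came to 0 at a mean of at least 2 (529 at an unadjusted p under 0.05 by limma) and to 2 to 5 when a mouse was left out, and for transcripts between genotypes 1 came to 0 to 4. The median litter difference over all genes was -0.049, -0.12 after rescaling and 0.0095 after quantile normalization.

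Signs turned for some differences under the alternatives, not all of them near 0, and none of these passed the threshold. Between genotypes Lrig2 was -0.0019 after rescaling, -0.028 with quantile normalization, -0.015 with sex and with litter and sex, -0.19 in litter B, -0.066 in females, -0.028 with the epithelial score and -0.054 without the fat-rich mice. Erbb3 was -0.14 in litter A and -0.0082 in females, and Errfi1 0.13 in litter B, 0.060 in females and 0.096 with the epithelial score. Between litters Lrig2 was -0.041 after rescaling and -0.10 in females, Lrig3 -0.021 after rescaling, -0.036 with the epithelial score and -0.052 without the fat-rich mice, and Errfi1 -0.34 with the fibroblast score. For the interaction, Egfr was 0.051 after rescaling and Lrig3 -0.094 with sex.

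Leaving out 1 mouse at a time gave, on the log2 scale, -0.032 to 0.058 for Lrig2 and -0.12 to 0.057 for Errfi1 between genotypes, -0.022 to 0.094 for Lrig2 and -0.0053 to 0.12 for Lrig3 between litters, and -0.12 to 0.045 for Egfr, -0.056 to 0.41 for Erbb2 and -0.039 to 0.23 for Lrig3 for the interaction. Transcripts between genotypes gave -0.062 to 0.67 for Cbl-209, -0.048 to 0.016 for Cbl-211, -0.092 to 0.011 for Egfr-201, -0.051 to 0.76 for Erbb2-203, -0.16 to 0.031 for Errfi1-202, -0.21 to 0.28 for Lrig2-207, -0.16 to 0.070 for Lrig3-201, -0.059 to 0.21 for Lrig3-204 and -0.0098 to 0.58 for Lrig3-206. In normalized TPM, differences between genotypes were -0.541 to 11.2 for Erbb3, -4.25 to 2.22 for Errfi1 and -0.18 to 0.295 for Lrig2, and those between litters -0.105 to 0.457 for Lrig2 and -1.02 to 1.74 for Spry2.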
